A study of Homo sapiens with 4 samples.

Results

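The genes described here mostly encode the nucleolar machinery that makes ribosomes, or the RNA exosome that trims and degrades nucleolar RNA. The cells were of the MM.1S line, exposed to MLN4924. Members were taken by gene symbol from the array annotation. The symbols were those starting with UTP, NOP, RRP, NOL, EXOSC, POLR1, PUS, BOP or MRTO, plus NCL, NPM1, FBL, DKC1, GAR1, NHP2, PES1, WDR12, WDR43, WDR75, NOC2L, NOC3L and NOC4L. Only probe sets listed with 1 gene were used, and pseudogenes were left out. This gave 74 of 19775 genes, with 165 probe sets. The rule itself uses symbols and no measured value, but it was written with earlier results of these data known. BOP1, DKC1, NOP56 and UTP14C had probe sets listed with several genes only and are therefore no members.

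MM.1S is an established human multiple myeloma line. Cells received the vehicle DMSO (control) or 250 nM MLN4924, an inhibitor of the NEDD8-activating enzyme, for 8, 16 or 24 h. How long the control was cultured is not labelled. Each group was 1 Affymetrix array of total RNA, so no test between groups was possible and each difference is that of 1 array from another. The study compared the expression profile of treated cells with that of control cells.

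Ribosomes begin in the nucleolus, where RNA polymerase I transcribes the long precursor of most ribosomal RNA. Large assemblies then fold, modify and cut that precursor: the small subunit processome, the large subunit assembly factors, and the small nucleolar ribonucleoproteins (snoRNPs) that guide methylation and pseudouridine formation. The exosome, a ring of proteins carrying exonucleases, trims precursor ends and removes the spacers that are cut out. Rapidly growing cells express these genes highly, and MYC is a well-known activator of many of them.

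Differences are given as log2 of the treated over the control intensity. A member counted as measured when its brightest probe set was on average brighter than the midmost probe set of the array (an intensity of 93.9, as a geometric mean over the 4 arrays), which 73 of 74 did. The exception was NOL4, a gene of neural tissue, with intensities of 82.1, 81.5, 68.8 and 91.3 on the control, 8, 16 and 24 h arrays. As no spread between cultures was available, a 1.3-fold difference (0.38 on the log2 scale) was used to count members. That is about 2 times the pooled SD between measured probe sets of 1 gene, which over 5719 genes came to 0.160, 0.189 and 0.180 at 8, 16 and 24 h. Over the 37 members with several measured probe sets the SD was 0.142, 0.172 and 0.186. In RNA from whole cultures, fewer cells of a type and less RNA per cell cannot be told apart.

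The arrays had medians of 92.2 to 95.4, and the 3' to 5' signal ratio of the GAPDH control probe sets was between 1.18 and 1.22 on all 4. That of ACTB was 2.21, 1.95, 2.14 and 1.99 on the control, 8, 16 and 24 h arrays. Each of the 10 plasma cell and myeloma markers, among them SDC1, IRF4 and XBP1, was measured. Of the markers of other cell types, 2 of 6 for T and NK cells, 1 of 5 for myeloid cells and 1 of 6 for stromal fibroblasts counted as measured. So did 1 of 2 for erythroid cells, HBB, at 995.3 to 1219. The summed erythroid signal was 1094 to 1158 on the control, 8 and 16 h arrays and 1299.9 at 24 h. The summed signal was 416.7 to 442.3 for the T and NK markers, 264.2 to 291.7 for the myeloid and 590.8 to 600.4 for the stromal ones. For the plasma cell markers it was 66896 at 8 h and 73514 to 74058 on the other arrays. The part of these differences in the results was not tested.

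Nucleolar and exosome genes stood near the control level at 8 h and below it at 16 and 24 h. At 8, 16 and 24 h the 73 measured members had medians of 0.047, -0.18 and -0.17, against 0.0071, 0.026 and 0.016 for all 12446 measured genes. Below control were 24 members at 8 h, 56 at 16 h and 60 at 24 h, or 32.9%, 76.7% and 82.2%. Of all measured genes 48.3%, 45.7% and 47.4% were below control at those times. The members' differences were small, with the middle of the group between -0.29 and -0.0085 (lower and upper quartile) at 16 h and between -0.30 and -0.025 at 24 h.

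Counted at 1.3-fold, 0 members were lower at 8 h, where 4.16% of all measured genes were, and 1 was higher, against 3.41%. At 16 h 8 members were lower (11.0%, against 7.44% of all genes) and 2 higher (8.16% of all genes). At 24 h 9 were lower (12.3%, against 7.39%) and 2 higher (8.17% of all genes). At 16 and 24 h the share of lower members was thus somewhat above that of all genes. The share of higher members, 2.74% at both times, was below it. Most of the group's shift lay in many small differences of 1 sign. No member reached 2-fold at any time, a size that 0.249%, 0.675% and 0.707% of all genes had at 8, 16 and 24 h. The 24 h count of lower members was 5 of 56 without probe sets named _x_at or _s_at, which can match several transcripts, and 6 of 73 with the mean over a gene's measured probe sets. Of all genes 7.55% and 6.35% were lower under those settings.

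**Figure D1:**
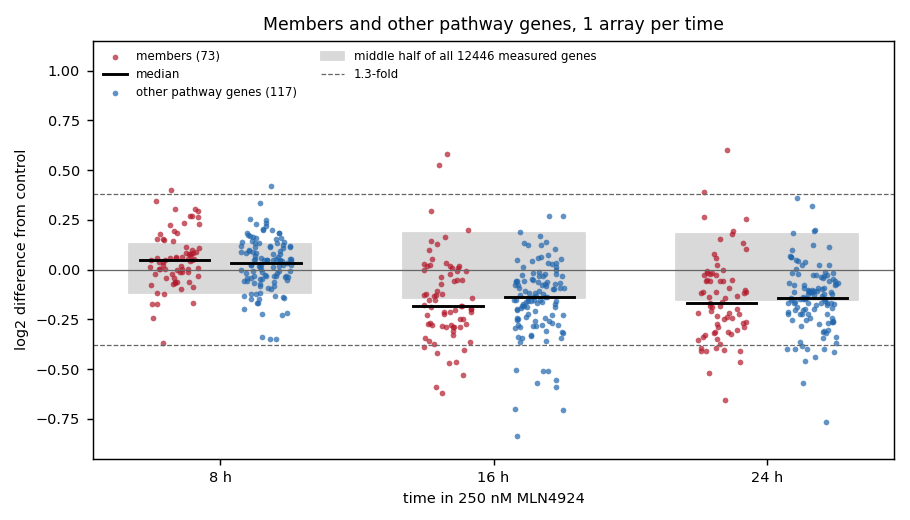
Log2 difference from the control array (vertical axis) at 8, 16 and 24 h, 1 point per gene, for the 73 measured members (red) and 117 other genes of the same pathways (blue). Black bars are medians and grey boxes the interquartile range of all 12446 measured genes. The members' median is 0.047 at 8 h and lies just below the grey box at 16 h (-0.18) and 24 h (-0.17).

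Centring each array on its own median lowered all differences by a constant at each time. Of all measured genes 5.66% were then lower and 2.47% higher at 8 h, 8.83% and 6.81% at 16 h, and 9.49% and 6.20% at 24 h, so that lower calls outnumbered higher ones at 16 and 24 h too. Under that centring 1, 11 and 13 members were at least 1.3-fold lower at 8, 16 and 24 h. The members' medians became 0.0025, -0.22 and -0.22, beside -0.038, -0.0070 and -0.033 for all genes. The distance between the medians cannot change under this centring, which takes 1 constant from every gene of an array.

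The step from 8 to 16 h held most of the difference. The members' median from 8 to 16 h was -0.19, against 0.015 for all measured genes. Lower at 16 h than at 8 h were 59 of 73 members (80.8%, against 47.1% of all measured genes). In that step 12 members were at least 1.3-fold lower, where 5.66% of all genes were, and 0 were at least 1.3-fold higher, against 7.02%. From 16 to 24 h the median was -0.016, as in all genes (-0.015). Here 0 members were at least 1.3-fold lower or higher, shares that were 1.17% and 2.92% among all genes. Below control at both 16 and 24 h were 54 members (74.0%, against 36.3% of all measured genes). Of these, 32 were above control at 8 h (43.8% of members, against 11.0% of all measured genes with that pattern). These counts share the control array and are descriptions of 4 arrays.

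**Figure D2:**
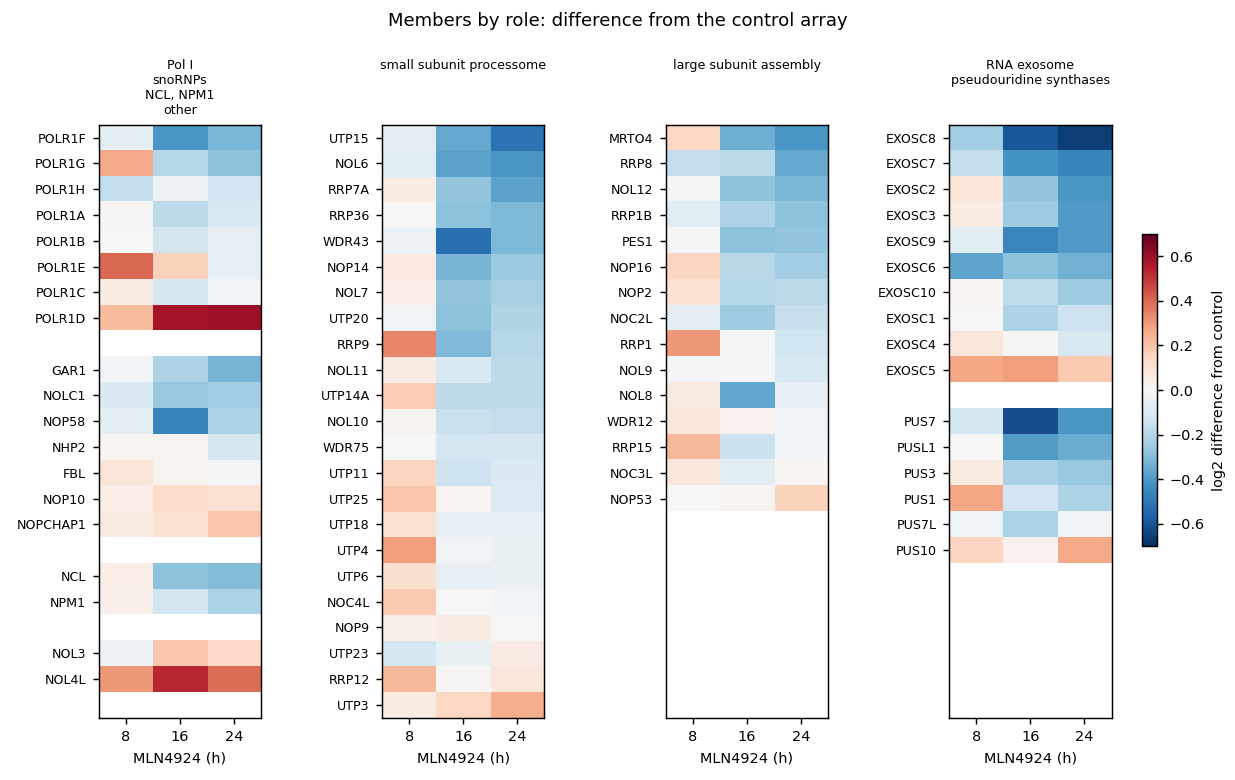
Difference from the control array for each of the 73 measured members (rows, grouped by role and ordered by the 24 h value) at 8, 16 and 24 h of MLN4924 (columns). Blue is below and red above control on the log2 scale; most rows turn from pale or red at 8 h to blue at 16 and 24 h, with POLR1D and NOL4L as the strongest red rows.

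The 8 RNA polymerase I subunits had medians of 0.028, -0.12 and -0.084, and 2, 6 and 7 were below control at 8, 16 and 24 h. POLR1A and POLR1B, which form the catalytic centre, stayed close to control. POLR1A had intensities of 317.5, 318.9, 279.2 and 294.0 on the control, 8, 16 and 24 h arrays, and POLR1B had 1607, 1611, 1470 and 1545. Their differences were -0.19 and -0.13 at 16 h and -0.11 and -0.056 at 24 h. POLR1F, a subunit of the enzyme's stalk, was among the lower members at 16 h, with 799.0, 762.3, 602.7 and 640.7 and differences of -0.068, -0.41 and -0.32. Both late arrays were below both early ones, and its other measured probe set stood at -0.37 at 16 h. POLR1G, part of a module that aids initiation, had 751.1, 902.6, 653.3 and 614.5, so that it was highest at 8 h (0.27) and below control at 24 h (-0.29).

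POLR1E showed the only 1.3-fold difference among the members at 8 h. It had intensities of 314.1, 415.0, 351.8 and 302.3, or differences of 0.40, 0.16 and -0.055. The 8 h array stood above the others. Its other measured probe set was at 0.061 at 8 h, so the size of that difference was not the same in both. POLR1D, a small subunit shared with RNA polymerase III, went the opposite way to most members, with 1926, 2247, 2883 and 2916. That is 0.58 (log2) above control at 16 h and 0.60 (1.51-fold) at 24 h, with both late arrays above both early ones. Its other 2 measured probe sets disagreed, at 0.30 and -0.18 at 24 h, and with the median over its probe sets POLR1D stood at -0.20 and -0.18 at 16 and 24 h. POLR1C, the other subunit shared with RNA polymerase III in this list, stood at 0.050, -0.12 and -0.025.

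Of the small subunit processome, the particle that folds and cleaves the precursor of the small subunit's RNA, 23 members were measured. Their medians were 0.059, -0.14 and -0.17, and 6, 19 and 19 were below control at 8, 16 and 24 h. Without _x_at and _s_at probe sets the 24 h median was -0.053. UTP15, of the subcomplex that joins the nascent transcript first, had intensities of 381.3, 365.4, 297.4 and 266.1. It was 1.43-fold lower at 24 h (-0.52), lower on each later array than on the one before, and its dimmer probe set stood at -0.095. NOL6, a scaffold protein of the processome, had 661.8, 626.0, 510.4 and 499.0, with -0.37 at 16 h, just short of 1.3-fold, and -0.41 at 24 h. Its other measured probe set was at -0.28 and -0.14, and with the median over all its probe sets NOL6 stood at -0.12 and -0.069. RRP7A, another processome component, had 1354, 1402, 1117 and 1045, and its differences of -0.28 and -0.37 were inside 1.3-fold. Its other 2 measured probe sets were at -0.52 and -0.44 at 24 h.

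WDR43, a partner of UTP15 in that subcomplex, had intensities of 1071, 1040, 742.4 and 862.1. It was 1.44-fold lower at 16 h (-0.53) and stood at -0.31 at 24 h, so the 16 h array was the lowest. RRP9, a protein of the U3 snoRNP, turned from 0.34 at 8 h to -0.31 at 16 h, the largest step of any member between 8 and 16 h (-0.65, 1.57-fold). Its intensities were 329.2, 417.9, 266.2 and 286.5. UTP3, a processome component with chromatin roles, was above control on all treated arrays, with 3252, 3387, 3596 and 3883 and 0.26 at 24 h. UTP4 (0.29 at 8 h) and RRP12 (0.23 at 8 h), an export factor, stood at -0.053 and 0.080 at 24 h.

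The snoRNP proteins were on balance level with control at 16 h, when the other ribosome synthesis groups were below it. Over 7 members the medians were 0.016, 0.018 and -0.12, and 3, 3 and 5 were below control at 8, 16 and 24 h. Without _x_at and _s_at probe sets the medians at 16 and 24 h were -0.21 and -0.22. FBL, fibrillarin, the methyltransferase of the box C/D particles, had intensities of 8044, 8554, 8142 and 7998, within 0.089 (log2) of control at each time. NOP58, its core partner in the same particles, had 5865, 5621, 4243 and 5038. It was lowest on the 16 h array, with differences of -0.061, -0.47 and -0.22. NOPCHAP1, a chaperone that helps assemble NOP58, stood at 0.062, 0.10 and 0.19. Of the H/ACA particles, which guide pseudouridine formation, GAR1 was at -0.33 at 24 h (1785, 1758, 1540 and 1423) while NHP2 and NOP10 were at -0.12 and 0.10. NOLC1, a chaperone of both kinds of particle, stood at -0.099, -0.27 and -0.24, and both of its other measured probe sets were also below control at 16 h (-0.43 and -0.38).

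The abundant nucleolar proteins were both lower on the late arrays. NCL, nucleolin, which binds the precursor RNA and chromatin of its genes, had 7916, 8163, 6482 and 6418, or 0.044, -0.29 and -0.30. Its 1 other measured probe set was dim (112.1 to 128.6) and stood at 0.13 at 16 h and -0.064 at 24 h. NPM1, nucleophosmin, a chaperone of ribosomal proteins and histones, had 16941, 17384, 15499 and 14553, or 0.037, -0.13 and -0.22, and its other 2 probe sets were at -0.18 and -0.15 at 24 h. NPM1 has many processed copies in the genome, and whether its probe sets separate them was not tested.

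Large subunit assembly factors had medians of 0.060, -0.20 and -0.16 over 15 members, with 6, 13 and 13 below control. MRTO4, which holds the place of the stalk on the immature large subunit, had intensities of 1621, 1790, 1279 and 1221. It was at -0.34 at 16 h and -0.41 at 24 h, the 1 member of this group past 1.3-fold, and its other measured probe set stood at -0.56 and -0.54. PES1 and WDR12 encode 2 partners in 1 complex. PES1 stood at -0.29 and -0.28 at 16 and 24 h and WDR12 at 0.030 and -0.025. The other measured probe sets of WDR12 stood at 0.00082 and -0.33 at 16 h and at -0.22 and -0.48 at 24 h, so its difference varied with the probe set. NOP16 was at -0.24 at 24 h and RRP8, a methyltransferase, at -0.36. NOL12, a nucleolar RNA-binding protein, was at -0.32, although its other measured probe set was at 0.053. NOL8, with intensities of 1827, 1905, 1420 and 1753, was at -0.36 at 16 h and -0.060 at 24 h. NOP53 was dim, at 94.9 to 105.5, just above the limit for measured genes.

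The RNA exosome had, with the probe sets used, the lowest median at 24 h among role groups of 3 or more members. Its 10 subunits had medians of 0.0077, -0.26 and -0.37 at 8, 16 and 24 h, and 4, 8 and 9 were below control. At least 1.3-fold lower were 3 subunits at 16 h and 5 at 24 h, where all measured genes had 7.44% and 7.39%. The count rested in part on the probe sets used. At 24 h it was 3 when each subunit was given the median of its probe sets, 2 with the mean over its measured ones, and 1 of the 7 subunits measured without _x_at and _s_at probe sets. The group's median at 24 h was then -0.20, -0.21 and -0.11, and at 16 h -0.20, -0.19 and -0.054. Under those 3 settings the pseudouridine synthases had the lower median at 24 h (-0.24, -0.24 and -0.28).

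The exosome's ring is built from 6 subunits, EXOSC4 to EXOSC9, and 3 of them were past 1.3-fold at both late times. EXOSC8 had intensities of 929.6, 785.2, 616.4 and 589.1. It was 1.51-fold lower at 16 h (-0.59) and 1.58-fold lower at 24 h (-0.66), the lowest member at that time, and each later array was below the one before. EXOSC8 had 1 probe set, of the _s_at kind. EXOSC9 had 1887, 1793, 1369 and 1436 (-0.074, -0.46 and -0.39), also in a single probe set of the _s_at kind. EXOSC7 had 1078, 960.8, 806.3 and 780.5 (-0.17, -0.42 and -0.47), again with an _s_at probe set. Its other measured probe set, much dimmer at 230.9 to 253.5, stood at 0.042 and 0.12 at 16 and 24 h, the opposite sign.

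The other ring subunits differed from these. EXOSC6 was already low at 8 h, with 493.9, 383.0, 404.7 and 390.6 (-0.37, -0.29 and -0.34), all treated arrays being below control. Its other probe sets were mixed, at 0.19 and -0.046 at 8 h. EXOSC5, which had a single probe set, was above control on each treated array, with 1146, 1380, 1406 and 1299 (0.27, 0.30 and 0.18). EXOSC4 stood at 0.081, 0.0060 and -0.11, with 3 probe sets in close accord (-0.11, -0.036 and -0.026 at 24 h).

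The cap subunits bind RNA where it enters the ring. EXOSC2 had 747.5, 791.4, 617.9 and 563.4, or 0.082, -0.27 and -0.41, and another bright probe set was at -0.52 at 24 h. Its dim probe set (113.2 to 131.2) stood at 0.16 at 16 h and -0.046 at 24 h. EXOSC3 had 1479, 1533, 1246 and 1125, or 0.051, -0.25 and -0.39, and all 4 of its other measured probe sets were below control at 24 h (-0.63 to -0.098). With the probe sets used, both were highest at 8 h and lowest at 24 h. At 8 h the other measured probe sets stood at -0.11 and 0.17 for EXOSC2 and from -0.029 to 0.29 for EXOSC3. EXOSC1, the remaining cap subunit, was at -0.21 and -0.14 at 16 and 24 h, and EXOSC10, the nuclear exonuclease, at -0.18 and -0.25.

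Pseudouridine synthases convert uridine to pseudouridine in tRNA and other RNA without a guide. The medians of the 6 measured members were 0.035, -0.23 and -0.24, and 2, 5 and 5 were below control. PUS7 had intensities of 1193, 1096, 776.0 and 900.7. It was 1.54-fold lower at 16 h (-0.62, the lowest member at that time) and 1.32-fold lower at 24 h (-0.40). PUSL1 had 602.5, 604.6, 459.5 and 473.4, level with control at 8 h and then at -0.39 and -0.35. PUS1 moved from 562.2 at 8 h, above its control value of 466.2, to 424.7 and 399.8 (0.27, -0.13 and -0.22). PUS3 was at -0.23 and -0.27, and PUS10, a dim gene at 106.7 to 128.1, at 0.26 at 24 h.

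**Figure D3:**
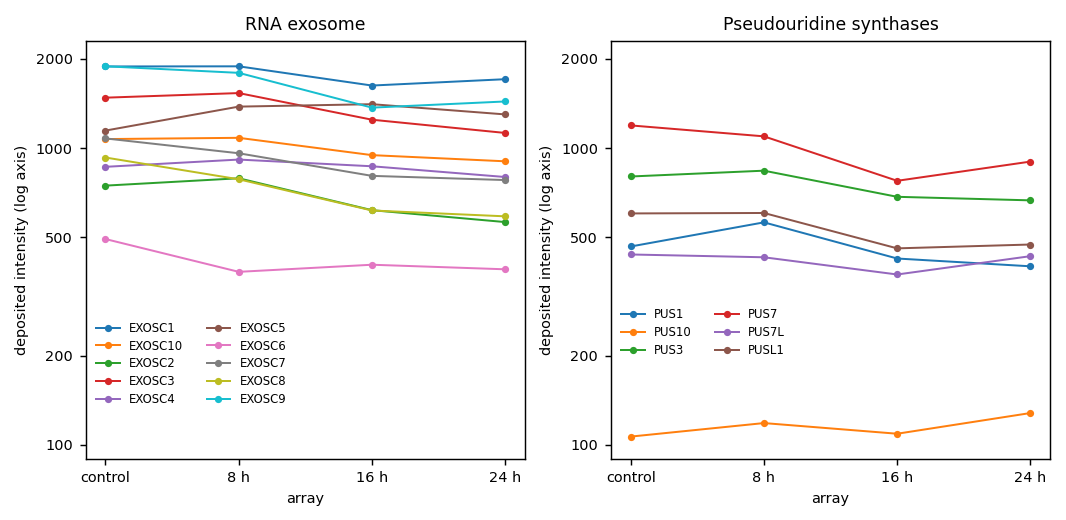
Deposited intensity (log axis) on the control, 8, 16 and 24 h arrays, 1 line per gene, for the 10 exosome subunits (left) and 6 pseudouridine synthases (right), from the probe set with the highest mean. EXOSC8 goes from 929.6 to 589.1 and PUS7 from 1193 to 776.0 at 16 h and 900.7 at 24 h, while EXOSC5 lies above its control value throughout; heights of different genes are not comparable.

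The symbol rule also takes genes outside ribosome synthesis and the exosome. Apart from the pseudouridine synthases, which act on tRNA and other RNA, they include NOL4, not measured, and NOL3 and NOL4L. The probe sets used for NOL3 and NOL4L lay above control at 16 and 24 h. NOL4L had intensities of 141.2, 174.3, 203.3 and 185.1, or 0.30, 0.53 and 0.39, all treated arrays being above control. Its 3 other measured probe sets were above control at 16 h (0.15 to 0.44). NOL3, an inhibitor of apoptosis, had 249.7, 242.8, 286.1 and 273.7, or -0.041, 0.20 and 0.13. Without NOL3, NOL4 and NOL4L the medians were 0.047, -0.19 and -0.18 over 71 members, which still held the pseudouridine synthases.

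Several members were lower at 16 h than at 24 h. NOL8, NOP58, PUS10, PUS7, PUS7L and WDR43 were at least 0.2 (log2) higher at 24 h than at 16 h. How many of all measured genes passed that limit was not counted. The upper quartile of the 24 h minus 16 h difference was 0.072 in members and 0.087 in all measured genes. Of all measured genes 62 were at least 0.5 lower at 16 h than at both 8 and 24 h, and 0 members were among them. Across the 73 members the 24 h minus 16 h difference had a Spearman correlation of 0.33 with the length of the gene in the genome (0.12 across 12429 measured genes), given as a description only. Members are short, with a median span of 16.6 kb against 28.1 kb for all measured genes.

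Where a member had several measured probe sets, these often differed in sign. Of the 37 such members, 23 had the same sign in every other measured probe set at the time of the largest difference. Of members past 1.3-fold with another measured probe set, all of the same sign were 2 of 4 at 16 h and 6 of 8 at 24 h. The 66 other measured probe sets had medians of -0.072 at 16 h and -0.066 at 24 h, closer to 0 than those used, and 41 and 45 of them were below control. They were the dimmer probe sets of their genes.

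**Figure D4:**
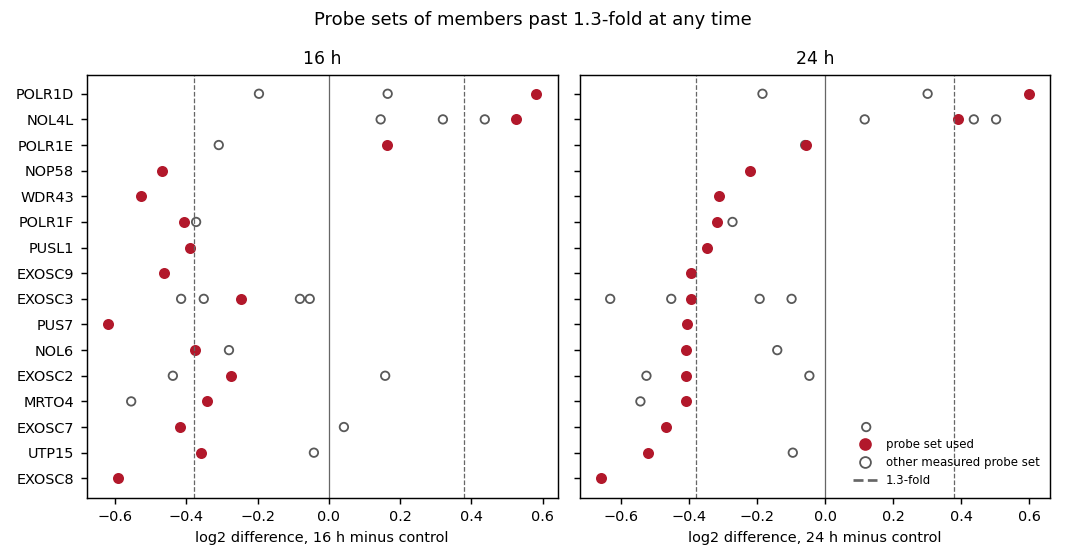
Log2 difference from control at 16 h (left) and 24 h (right) for the 16 members past 1.3-fold at any time, with the probe set used (red) and each other measured probe set of the gene (open circles). Dashed lines mark 1.3-fold. EXOSC7 and POLR1D have open circles on the other side of 0 at both times, as do EXOSC2 and POLR1E at 16 h. Those of EXOSC3, MRTO4 and NOL4L are on the same side as the red point.

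A further 125 genes of the same pathways, which the symbol rule does not take, were listed as a comparison, and 117 of them were measured. Their medians were 0.035, -0.14 and -0.14 at 8, 16 and 24 h, and 47, 97 and 99 were below control. At least 1.3-fold lower were 0, 9 and 10 (7.69% at 16 h and 8.55% at 24 h, close to the 7.44% and 7.39% of all genes), and 1, 0 and 0 were at least 1.3-fold higher. The lowest at 24 h were DDX55, a helicase of large subunit assembly (-0.34, -0.70 and -0.77), TAF1A, a subunit of the factor that recruits RNA polymerase I (-0.35, -0.59 and -0.57), SNU13, a snoRNP core protein (0.14, -0.25 and -0.46), and PELP1, of a complex that matures the large subunit (-0.13, -0.25 and -0.44). The highest were TSR1, a late small subunit factor (0.42, 0.014 and 0.36), NSA2, of the large subunit (0.14, 0.27 and 0.32), RPUSD3, a mitochondrial pseudouridine synthase (-0.030, 0.27 and 0.20), and ZNHIT3, of snoRNP assembly (0.025, 0.19 and 0.19). The 13 measured exosome catalysts and cofactors had medians of -0.10, -0.17 and -0.12. At 16 h 2 of them were at least 1.3-fold lower (15.4%, against 7.44% of all genes), DIS3 at -0.57 and SKIC3 at -0.50. At 24 h 0 were past 1.3-fold.

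MYC, the activator named above, had intensities of 8664, 8902, 8875 and 8283, or 0.039, 0.035 and -0.065, all within 0.1 (log2) of control. These are levels of its mRNA, and MYC protein was not measured. The binding motif of MYC, the E-box CACGTG, reads the same on both strands. It was searched for in the 250 bases before each gene start in RefSeq promoters of GRCh38.p14, which held 62 of the 74 members. The motif was in 9 of these 62 (14.5%) and in 7.73% of 27305 genes with a promoter. Those 27305 include genes that did not count as measured in these cells, whereas nearly all members did. The motif's share among measured genes was not counted. The windows below show it, in capitals, in 6 of the members: POLR1G, NOL7, NOL8 and UTP20, which were below control at 16 and 24 h, and EXOSC5 and NOP10, which were above it. All are written 5′ to 3′ on the strand of the gene.
POLR1G, chr19:45406605-45406643, plus strand: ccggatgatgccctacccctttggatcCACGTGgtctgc
NOL7, chr6:13615159-13615218, plus strand: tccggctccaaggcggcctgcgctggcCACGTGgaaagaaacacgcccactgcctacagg
NOL8, chr9:92325351-92325386, minus strand: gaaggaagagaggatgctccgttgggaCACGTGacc
UTP20, chr12:101280068-101280104, plus strand: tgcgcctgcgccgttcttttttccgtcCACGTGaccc
EXOSC5, chr19:41397416-41397475, minus strand: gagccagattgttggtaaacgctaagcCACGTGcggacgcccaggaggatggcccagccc
NOP10, chr15:34343137-34343174, minus strand: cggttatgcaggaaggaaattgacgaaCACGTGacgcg

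The motif began 9 to 12 bases before the gene start in NOL8, UTP20, NOP10 and POLR1G and farther upstream in EXOSC5 (89 bases) and NOL7 (149 bases). NOP10 had a second copy 170 bases before its start. The other members with it were UTP4, UTP14A and UTP18. Medians of the 9 measured members with the motif were 0.11, -0.18 and -0.060, and those of the 52 without it 0.041, -0.18 and -0.18. A second motif was CCGGAAG on either strand, the core bound by ETS factors. It was in 15 of the 62 promoters (24.2%) and in 10.2% of all genes with a promoter. Its share among measured genes was not counted either. Members with it, among them FBL, GAR1, POLR1B and RRP9, had medians of 0.050, -0.12 and -0.058, against 0.047, -0.19 and -0.20 for the 46 without it. A match describes these letters only, and no binding was measured.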

How the data were processed

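The labels' protocols record Trizol extraction, biotin-labelled cRNA and Affymetrix arrays. The deposited values are probe set intensities on a linear scale, and which summary or normalization the authors applied is not stated in the labels used here. The arrays' nearly equal quartiles were taken as showing comparable scales. Of 54675 probe sets, 41097 were listed with 1 gene, 1801 with several and 11777 not at all.

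Values under the 25th percentile (48.4) were raised to it, and log2 was taken. Each gene was represented by the 1-gene probe set of highest mean, and was measured above the median (50th percentile) of probe set means. No member used was at the floor. Members, lists and the 1.3-fold limit were chosen with earlier results of these data known. Named members were those past 1.3-fold at any time, up to 4 per role with the largest difference, and NCL, NPM1 and FBL. DKC1 was also planned but is no member. The 4 lowest and 4 highest other pathway genes at 24 h and MYC were named too. Others are given to complete a complex, for a probe set or a promoter, chosen after their values were seen. The steps were tested on simulated data. Python 3.11.15, numpy 2.4.6, pandas 2.3.3 and matplotlib 3.10.9 were used. Depth does not apply to arrays, and their number (1 per group) limits the precision. The alternatives were another gene summary, floor, filter, normalization, choice of probe sets or membership.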

Additional observations from a re-analysis of the deposited data

How the results depend on the processing

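The members' median kept its sign in all 9 alternatives at 8, 16 and 24 h, and moved by 0.05 or more (log2) only without _x_at and _s_at probe sets, to -0.13 at 16 h and -0.10 at 24 h over 56 members. In the step from 16 to 24 h it was within 0.05 of 0 throughout. The count at least 1.3-fold lower at 24 h moved by over 1.5 times only there, to 5. Of members at least 1.3-fold higher, centring the arrays gave 0 at 8 h and 1 at 24 h, with 1 lower at 8 h. Quantile normalization gave 1 higher at 24 h, and 1 from 8 to 16 h. The median over probe sets gave 0, 1 and 1 higher at 8, 16 and 24 h, and 1 from 8 to 16 h. The mean over measured probe sets, an alternative chosen after the data were seen, gave 0 at each time. A filter at the 75th percentile, or leaving out NOL3, NOL4 and NOL4L, gave 1 at 16 h and 1 at 24 h, leaving out _x_at and _s_at probe sets 1 at 16 h, and no filter 1 from 16 to 24 h. Of other pathway genes, 3 were lower at 8 h with centring and 2 without _x_at and _s_at probe sets. EXOSC7 took the opposite sign without _x_at and _s_at probe sets (0.042 at 16 h and 0.12 at 24 h), as did POLR1D with the median over probe sets (-0.20 and -0.18), in each case through another probe set. Named members inside 1.3-fold also changed sign. Given the median of its probe sets, RRP8 stood at 0.26, 0.28 and 0.25 at the 3 times and POLR1E at -0.31 at 16 h (-0.073 with the mean over measured ones), while NCL stood at 0.13 at 16 h without _x_at and _s_at probe sets. FBL, near 0, did so at 16 h with centring and at 24 h with quantile normalization. At 8 h so did EXOSC2, MRTO4, NCL, NOL12, NOL4L, NOL6, NPM1, POLR1D, PUSL1, RRP7A and UTP15, each under at least 1 setting. These pathway, role and step alternatives were also added after the data were seen. No paired analysis was possible because each group had 1 array. Dim genes such as NOP53, NOL4L and PUS10 lay near the limit for measured genes.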
